A study of Arabidopsis thaliana with 3 samples.

Results

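The data describe alternative splicing of 7 genes for flowering repressors of Arabidopsis thaliana in leaf. They are FLC (AT5G10140), its relatives FLM (AT1G77080, also MAF1) and MAF2, MAF3, MAF4 and MAF5 (AT5G65050, AT5G65060, AT5G65070 and AT5G65080), and the more distant SVP (AT2G22540). The genes were chosen by name, as the known members of this group, and all their rows of the table were taken: 58 events in 7 genes, of 62849 events in 14457 nuclear genes. RNA came from pooled first true leaves of untreated plants of the ecotype Col-0, the laboratory reference strain, grown at 20 °C under 16 h of light and 8 h of dark, and was sequenced in 3 libraries that the labels give as replicates of 1 group. There is therefore no contrast between treatments, and each value is given with its spread over the 3 libraries. Separate plantings are not mentioned in the labels, so that spread, and every p-value below, may reflect technical differences.

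All 7 genes encode MIKC-type MADS-box transcription factors, proteins that bind DNA as dimers and larger complexes and keep the plant vegetative. FLC is the main target of vernalization, the silencing by long cold that makes winter annuals competent to flower, and in Col-0 it is weakly expressed because its activator FRI carries a loss-of-function allele. SVP pairs with FLC or FLM and represses the flowering genes FT and SOC1. FLM is known for a pair of alternative exons, of which the FLM-beta form carries the first and acts with SVP as a repressor, and the FLM-delta form carries the second and has impaired DNA binding. Their balance shifts with growth temperature. Splicing of MAF2, a repressor that prevents flowering after short cold spells, also responds to temperature, through retention of its intron 3.

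An event is 1 alternative form at 1 place of a gene, and its level is the share, in percent, of its reads among the reads of that exon junction. Retained introns are the class IR of the table, shifted acceptors (the 3′ end of an intron) ALTA, shifted donors (its 5′ end) ALTD, skipped exons SKIP, and introns inside 1 exon CRIN. At all 11 junctions of these genes with several events, the events shared 1 total in every library, so the reads left after all listed alternatives were taken as the annotated splice form. Those remaining reads may hold forms too rare to be listed. Skips and shifts that pass over an exon carry a total of the whole gene, so skips were also set against their flanking junctions. The table lists an event only where every library has at least 1 alternative read, and the sources used here do not state the counting rule for intronic reads. The libraries held 34587113, 33141594 and 62624801 nuclear junction reads, of which the 7 genes took 14580, 15275 and 26271.

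The 5 leaf mesophyll genes looked up, RBCS1A, RCA, CA1, LHCB3 and LHCA3, were all listed, at 1509 (CA1) to 10002 (RBCS1A) RPM, the unit explained with the next result. Of 4 floral organ genes, AG and SEP3 were listed, at 0.356 and 0.453 RPM, and of 3 shoot meristem genes none was. Of 2 root genes SCR was listed, at 3.20 RPM. A gene is listed only with a splicing event, so its absence says nothing of its expression.

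SVP was the most abundant of the 7 repressors and MAF4 and FLC the least. Reads per junction, which do not grow with transcript length, are given as RPM, the median over the listed junctions of a gene scaled to 1000000 junction reads of the library. SVP had 38.7, 45.7 and 42.5 in replicates 1, 2 and 3 (42.3 ± 3.49, SD, n = 3), more than 93.3% of the 14108 genes with such a value. FLM had 11.9, 10.8 and 9.51 (10.7 ± 1.2) and MAF2 8.95, 8.39 and 7.29 (8.21 ± 0.844), and the ranges of the 2 genes over libraries did not overlap. These values include retained reads. With only reads outside retained introns, an alternative chosen after seeing the data, FLM had 7.95 ± 0.789 and MAF2 6.94 ± 0.924, and these spreads overlapped. MAF3 had 3.28, 3.82 and 3.24 (3.45 ± 0.321), below the median of all genes of 4.05. MAF5 reached 1.97 ± 0.575 over 2 listed junctions. FLC, with 1 listed junction, had 0.838, 0.996 and 1.02 (0.952 ± 0.0992), and MAF4 had 0.636, 0.754 and 0.782 (0.724 ± 0.0777). The lowest FLC library was above the highest MAF4 library. The MAF4 median includes exons 1-2 and 2-3, whose junctions held 1 to 4 reads per library. At exons 4-5 alone MAF4 had 27, 33 and 55 reads, beside 29, 33 and 64 at the FLC junction. The separation thus depends on the junctions counted. With the mean in place of the median over all its listed junctions, the level of MAF4 was 0.528. In a pooled leaf, fewer cells of a type and less RNA per cell cannot be told apart.

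**Figure D1:**
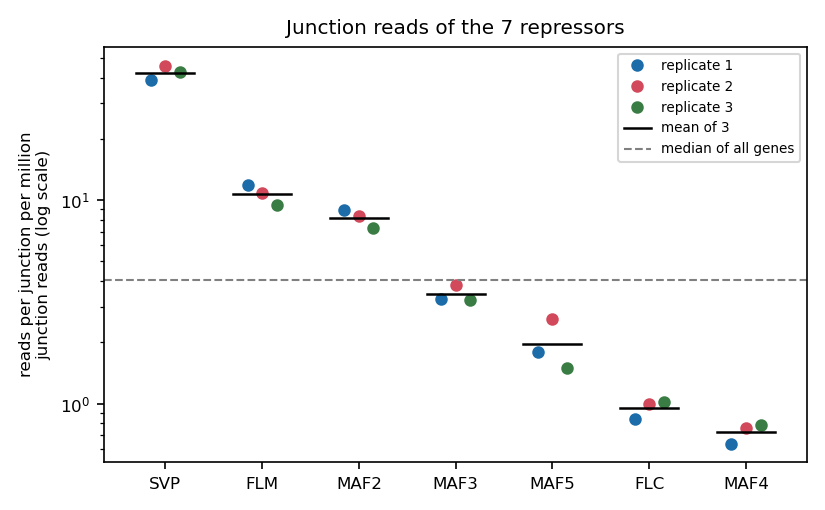
Reads per junction in RPM (log scale) of the 7 repressors in the 3 libraries, as points, with their mean as a line and the median of all genes as a dashed line. SVP, FLM and MAF2 lie above that median of 4.05, and MAF3, MAF5, FLC and MAF4 lie below it.

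The number of listed events followed the same genes only in part. FLM had 15 events, a number that 2.18% of the listed genes reached, SVP and MAF2 had 11 each, MAF3 10, MAF4 6, MAF5 4 and FLC 1, against a median of 3 over all listed genes. The 58 events were 33 retained introns, 14 shifted acceptors, 4 shifted donors, 5 skips and 2 introns inside exons. No event of the classes ALTP, CREX, SKAD or CPLX was listed in these genes. Among the numbered junctions, 3-4 of SVP, 2-3 to 6-7 of FLC and 2-3 to 5-6 of MAF5 had no listed event, and none after 5-6 was listed in MAF4.

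The median level of the 33 retained introns was 13.3%, beside 4.19% over all 43194 retained introns of the table, and 18 of the 33 were at 10% or more, beside 28.7% of all. This median is a description and rests in part on introns with few reads. With at least 10 retained reads in every library it was 14.5% over 18 introns, beside 11.6% over all such introns, and without replicate 1 it was 8.62%, beside 3.93%. Intron 4 was spliced nearly completely in the 3 genes with a full series, FLM, MAF2 and MAF3, at 1.18%, 0.991% and 1.12%, while other introns of the same genes reached 40.8% in FLM, 71.8% in MAF2 and 43.4% in MAF3. The FLM value is that of intron 2, which holds the exon of FLM-delta, so reads of that exon may be among those counted. Intron 6 of FLM was at 36.6%.

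**Figure D2:**
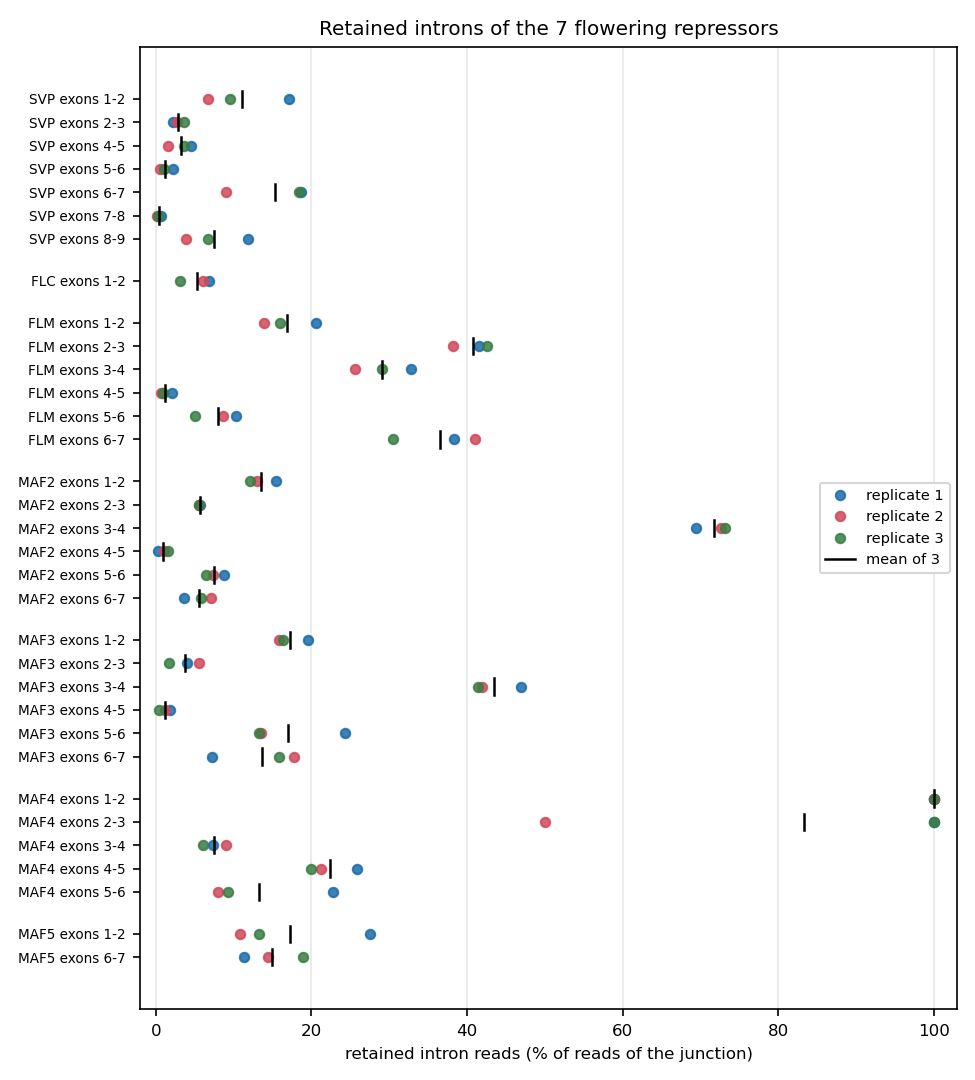
Share of retained reads at each listed intron of the 7 genes, named by its flanking exons, with 1 point per library and the mean of 3 as a line. MAF2 at exons 3-4 (71.8%) stands above the other introns with many reads. The MAF4 points at exons 1-2 and 2-3 rest on 5 and 7 junction reads over the 3 libraries. They lie at 100%, except 50% in replicate 2 at exons 2-3.

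FLM made both of its alternative exons in these leaves, and the exon of FLM-delta had 28.1% of the junction reads that used one or the other. That exon of 46 nt lies inside the interval that the table numbers as intron 2, so its junctions appear as a shifted acceptor between exons 1 and 3 and as a donor shifted by 110 nt between exons 2 and 3. Both of its ends are annotated in 2 RefSeq transcripts. The stretch is shown because these bases make up the second alternative exon. It lies at chr1:28958436-28958511 (plus strand, TAIR10.1), with the exon in capitals.
FLM delta exon: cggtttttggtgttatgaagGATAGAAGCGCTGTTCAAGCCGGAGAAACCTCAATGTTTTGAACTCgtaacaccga

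Reads from exon 1 into this exon numbered 70, 83 and 155 in replicates 1, 2 and 3, and reads from exon 1 into exon 2 numbered 242, 247 and 405. The delta exon thus took 22.4%, 25.2% and 27.7% of the reads that left exon 1 for either exon (25.1% ± 2.62, SD, n = 3). On the other side, 105, 88 and 131 reads joined the delta exon to exon 3, and 202, 202 and 315 joined exon 2 to it. There the delta share was 34.2%, 30.3% and 29.4% (31.3% ± 2.55). The exon 3 side was higher in 3 of 3 libraries, by 11.8, 5.19 and 1.69 points (6.22 ± 5.11; exact sign-flip permutation test over libraries, two-sided p = 0.25, the smallest that 3 pairs allow). With both sides added, the share was 28.3%, 27.6% and 28.4% (28.1% ± 0.451). In replicate 1 the 95% Wilson interval, which covers counting error only, was 18.2 to 27.4% on the exon 1 side and 29.1 to 39.7% on the exon 3 side.

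**Figure D3:**
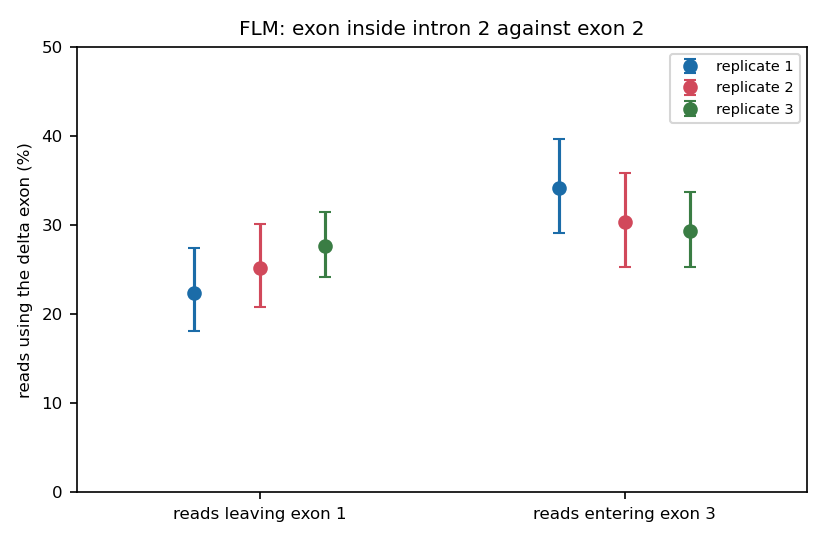
Share of FLM reads that use the delta exon rather than exon 2, among reads leaving exon 1 and among reads entering exon 3, per library, with 95% Wilson intervals for counting error. The points run from 22.4% to 34.2%, and the exon 3 side is higher in each library.

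Few FLM reads left out both exons or used other ends. Reads joining exon 1 straight to exon 3 numbered 1, 3 and 1. A donor 11 nt before the end of the delta exon, at 28958490, had 4, 10 and 10 reads (1.36% ± 0.658 of the junction), and an acceptor 5 nt into it, at 28958461, had 2, 1 and 4 reads. Put into the annotated transcript, the delta exon in place of exon 2 kept an open frame of 192 codons, beside 196 codons with exon 2, whereas skipping both gave a stop after 77 codons. If exon 2 were kept and extended to the delta donor, the stop came after 84 codons. Junction reads do not tell at which base the exon before that donor began.

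Intron 2 of FLM was retained at 41.5%, 38.3% and 42.6% (40.8% ± 2.27, chr1:28958392-28958601, coding region, 210 nt). A chi-square test of equal levels over all nuclear events did not call a difference between libraries (adjusted p = 0.597). Since the delta exon lies inside this interval, its reads may have been counted as retained ones, and this was not tested. The introns of the same number in MAF2 and MAF3 were retained at 5.62% ± 0.0394 and 3.75% ± 1.95. MAF2 minus FLM was -35.9, -32.7 and -37.03 points in the 3 libraries, and MAF3 minus FLM -37.5, -32.7 and -41.0 points, so FLM was the higher in each.

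A donor inside intron 2 was also in use in MAF2, at a low level. A donor that adds 109 nt to exon 2 of MAF2 (chr5:25984739-25984847) had 2, 4 and 6 reads, or 1.13% ± 0.402 of the junction, and no acceptor for an exon before it was listed. No such donor was listed in MAF3. The bases of MAF2 around this donor, at chr5:25984782-25984857 (plus strand, TAIR10.1), are shown with the new donor in capitals, to be set against those of FLM. They were chosen by distance from the donor and not by alignment to the delta exon.
MAF2 intron 2: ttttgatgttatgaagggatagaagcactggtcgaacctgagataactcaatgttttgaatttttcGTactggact

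Introns 6 and 3 were the next most retained in FLM. Intron 6 (chr1:28959372-28959743) was retained at 38.3%, 41.0% and 30.4% (36.6% ± 5.49), and 3 RefSeq transcripts keep it. Intron 3 (chr1:28958664-28958744) was retained at 32.8%, 25.6% and 29.0% (29.1% ± 3.59), and 4 RefSeq transcripts keep it. Intron 1, of 2470 nt, was at 16.9% ± 3.44 and intron 5 at 8.00% ± 2.65. Retention of intron 3, of 81 nt, left the FLM frame open for 223 codons, while retention of intron 6 gave a stop after 176. At intron 6, an acceptor 28 nt into exon 7 had 4, 4 and 6 reads (0.978% ± 0.0240) and 1 that adds 41 nt had 1, 2 and 6 (0.573% ± 0.377).

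At intron 3 most junction reads of MAF2 were retained ones, with a lower share in MAF3 and the lowest in FLM. Retained reads at MAF2 intron 3 (chr5:25985003-25985088, 86 nt) numbered 236, 237 and 355 of 340, 326 and 485, or 69.4%, 72.7% and 73.2% (71.8% ± 2.06). In MAF3 (chr5:25990004-25990083, 80 nt) the levels were 46.9%, 41.9% and 41.5% (43.4% ± 3.02). The ranges of the 3 genes over libraries did not overlap. MAF2 exceeded MAF3 by 28.3 ± 5.07 points, MAF2 exceeded FLM by 42.6 ± 5.39 points and MAF3 exceeded FLM by 14.3 ± 1.96 points, each in 3 of 3 libraries. In 18 such comparisons (3 gene pairs at 6 introns), the exact sign-flip test could not go below p = 0.25, or 0.346 after Benjamini-Hochberg adjustment, so none could pass 0.05. No RefSeq transcript of MAF2 or MAF3 keeps this intron. With intron 3 kept, the frame of 196 codons in the annotated transcripts ended after 145 codons in MAF2 and 138 in MAF3.

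The spliced reads of that junction also differed between the genes in the acceptor they used. The sequences of intron 3 and the first 40 bases of exon 4 are shown because the acceptors in use can be read from them. They lie at chr1:28958664-28958784 in FLM, chr5:25985003-25985128 in MAF2 and chr5:25990004-25990123 in MAF3 (all plus strand, TAIR10.1). Capitals mark the GT of the donor, the AG of the annotated acceptor and, where present, the AG at bases 32 to 33 and 37 to 38 of exon 4.
FLM: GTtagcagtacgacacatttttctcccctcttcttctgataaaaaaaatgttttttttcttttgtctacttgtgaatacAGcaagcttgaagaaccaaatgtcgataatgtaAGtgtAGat
MAF2: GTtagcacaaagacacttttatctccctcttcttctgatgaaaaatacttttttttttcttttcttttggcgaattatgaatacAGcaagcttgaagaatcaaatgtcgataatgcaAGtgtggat
MAF3: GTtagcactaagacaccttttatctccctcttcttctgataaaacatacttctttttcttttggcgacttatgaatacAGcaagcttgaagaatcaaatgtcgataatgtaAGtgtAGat

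In MAF3 the acceptor 38 nt into exon 4 was the most used in each library, and no RefSeq transcript has it. Of the spliced reads, 49 of 69, 40 of 72 and 84 of 134 used it in replicates 1, 2 and 3, or 71.0%, 55.6% and 62.7% (63.1% ± 7.74). The annotated acceptor had 14.5%, 33.3% and 29.9% (25.9% ± 10.02) and the acceptor 33 nt into the exon, used by 1 RefSeq transcript, 11.0% ± 3.52. In FLM, with the same pair of AG dinucleotides, 97.5% ± 0.789 of the spliced reads used the annotated acceptor and 2.47% ± 0.789 the one at 38 nt, and none at 33 nt was listed. In MAF2 the annotated acceptor had 86.7% ± 2.48 and the acceptor at 33 nt 11.4% ± 2.78, and none at 38 nt was listed. Over these 38 bases MAF2 differed from MAF3 by T30C and A37G and FLM differed from MAF3 by T14C, with positions counted from 1 at the first base of exon 4, the base of MAF3 first. A37G removes the second AG from MAF2. MAF2 also used an acceptor 64 nt into exon 4 with 4, 1 and 1 reads.

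**Figure D4:**
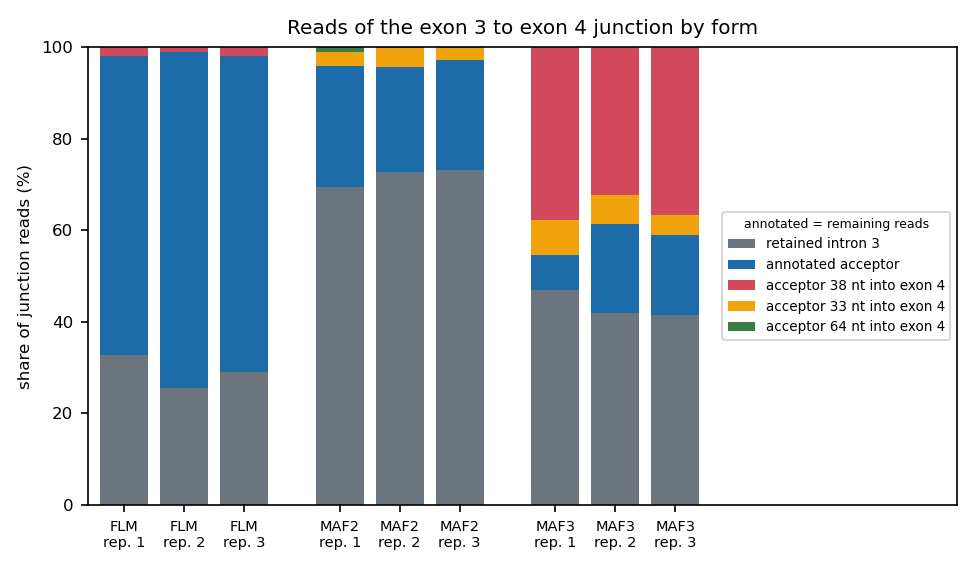
Shares of the exon 3 to exon 4 junction reads of FLM, MAF2 and MAF3 by form, 1 bar per library, with bars that add to 100%. Retained reads take most of the MAF2 bars (69.4% to 73.2%), the annotated acceptor most of the FLM bars, and the acceptor 38 nt into exon 4 is large in the MAF3 bars alone among the 3 genes.

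The removal of 33 nt keeps the reading frame (185 codons in MAF2 and MAF3), and the removal of 38 nt ended it after 118 codons in MAF3 and 111 in FLM. Intron 3 of the 3 genes is similar, at 77.0% identity between FLM and MAF2, 81.5% between FLM and MAF3 and 85.1% between MAF2 and MAF3. Their coding sequences are 87.3%, 89.7% and 93.6% identical, with shared runs of up to 44, 61 and 59 nt. Read length and the treatment of reads with several matches are not stated, so counts split between FLM, MAF2 and MAF3 are uncertain.

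The acceptor of exon 5 had a second AG in use 4 nt downstream in the same 3 genes. Their last 20 bases of intron 4 and first 10 of exon 5 are shown with both AG in capitals, at chr1:28958933-28958962, chr5:25985283-25985312 and chr5:25990264-25990293 (plus strand, TAIR10.1).
FLM: atcttaatgtcttgttatAGgcAGaactga
MAF2: ttcgtaatgtcttgttgtAGacAGaactaa
MAF3: tccgtaatgtcttgttctAGacAGaactaa

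The downstream site took 5.66%, 6.69% and 7.91% of the spliced reads in MAF2 (6.75% ± 1.12) and 14.6%, 4.05% and 6.38% in MAF3 (8.36% ± 5.57). In FLM it had 1, 2 and 3 reads, or 0.480% ± 0.161, so that every MAF2 and MAF3 library lay above every FLM library. The 4-nt shift breaks the frame, and a stop followed after 136 codons in all 3 genes.

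Skips that joined exon 1 straight to exon 3 were frequent in MAF3, fewer in MAF2 and rare in FLM. In FLM the delta form also leaves out exon 2, and took 25.1% ± 2.62 of the reads leaving exon 1 for either exon. Reads that joined exons 1 and 3 of MAF3 numbered 39, 76 and 94, which is 7.44% ± 2.03 of gene-wide reads. Set against the mean of the spliced reads of the flanking junctions (71, 66 and 120), the skip had 35.5%, 53.5% and 43.9% (44.3% ± 9.04). In MAF2 the same skip had 23, 25 and 18 reads, 1.42% ± 0.526 of gene-wide reads and 7.21% ± 2.26 at junction level. In FLM the 5 reads that joined exons 1 and 3 made up 0.559% ± 0.460 at junction level. That value does not count the delta form as a skip, and its flanking reads include those from the delta donor. With exon 1 joined to exon 3, the skip of exon 2, of 58 nt, ended the frame after 77 codons in each of the 3 genes.

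The other introns of MAF3 and MAF2 were kept at moderate levels. MAF3 retained intron 1 at 17.2% ± 2.03, intron 5 at 24.4%, 13.5% and 13.3% (17.0% ± 6.36) and intron 6 at 7.22%, 17.8% and 15.8% (13.6% ± 5.64). MAF2 retained intron 1 at 13.5% ± 1.77, intron 5 at 7.54% ± 1.12 and intron 6 at 5.54% ± 1.72. Intron 6 was thus retained least in MAF2 and most in FLM in each library, and MAF2 minus FLM was -34.6, -33.9 and -24.6 points. At intron 4 no pair of the 3 genes kept 1 direction in all libraries. FLM, MAF2, MAF3 and FLC share the lengths of exons 2 to 6, at 58, 62, 100, 42 and 42 nt, so the same numbers stand for matching introns.

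SVP had a median retention of 3.24% over 7 introns. The medians were 6.58% in MAF2, 15.3% in MAF3, 16.1% in MAF5, 22.4% in MAF4 and 23.0% in FLM with its intron 2 counted, and the single listed intron of FLC was at 5.36%. Listing needs an alternative read in every library, so low levels can go unlisted in genes with few reads. Over introns with at least 10 retained reads in every library, the medians were 5.36% in SVP, 10.5% in MAF2, 17.2% in MAF3 and 29.1% in FLM. No intron of FLC, MAF4 or MAF5 had that many. SVP introns made up most of the calls between libraries. Intron 6 (chr2:9582431-9582901) was retained in 263 of 1410, 137 of 1515 and 561 of 3045 reads, or 18.7%, 9.04% and 18.4% (15.4% ± 5.48). Intron 1 (chr2:9580599-9581505) was retained at 17.1%, 6.77% and 9.51% (11.1% ± 5.34), and intron 8 (chr2:9583194-9583584) at 11.8%, 3.89% and 6.68% (7.47% ± 4.04). Intron 4 was at 4.55%, 1.57% and 3.61% and intron 5 at 2.19%, 0.559% and 1.00%. Intron 2 was at 2.85% ± 0.775 and intron 7 at 0.405% ± 0.243. Retention was lowest in replicate 2 at 6 of the 7 introns and highest in replicate 1 at 6 of 7, and intron 2 went against both.

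The differences between libraries were tested by a chi-square test of equal levels over all 62849 nuclear events, which sets them against read-counting error alone. At an adjusted p under 0.05 (Benjamini-Hochberg), 8 of the 58 events were called, beside 10.1% of all nuclear events, and 7 of the 33 retained introns, beside 12.1% of all retained introns. SVP held 5 of the calls, at introns 1, 6, 8, 4 and 5 (chi-square test, adjusted p = 4.80e-16, 1.06e-14, 1.92e-08, 0.000575 and 0.000998). By the same chi-square test over all nuclear events, the others were intron 6 of FLM, intron 5 of MAF3 and the 4-nt acceptor of MAF3, with adjusted p-values of 0.0171, 0.0483 and 0.0142. With a likelihood-ratio test (10.2% of all events called), intron 5 of MAF3 was no longer called and intron 5 of FLM was. Over all retained introns of the table, replicate 2 held the lowest level at 39.7% and replicate 1 the highest at 42.2%, and the medians of the 3 libraries were 4.23%, 3.53% and 4.0%. The part of a general difference between libraries in the SVP values was not tested. Power grows with reads, of which SVP has the most. Tested and adjusted over events with 10 or more alternative reads in every library, 9 of 27 events of these genes were called, beside 23.7% of all such events. Leaving out a library also lowered the calls over all events. Without replicate 1, 3 of 58 were called (SVP introns 4 and 6, FLM intron 6), beside 3.25% of all. Without replicate 2, 4 were called (SVP introns 1, 5 and 8, FLM intron 5), beside 5.88% of all. Without replicate 3, 7 were called, beside 5.97% of all, and introns 6 of FLM and 5 of MAF3 were lost while the exon 2 skip of MAF3 was gained. Among the called values, the mean level of SVP intron 5 was 0.780% without replicate 1, beside 1.25% with it, and that of the 4-nt acceptor of MAF3 was 5.18%, beside 8.25%.

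**Figure D5:**
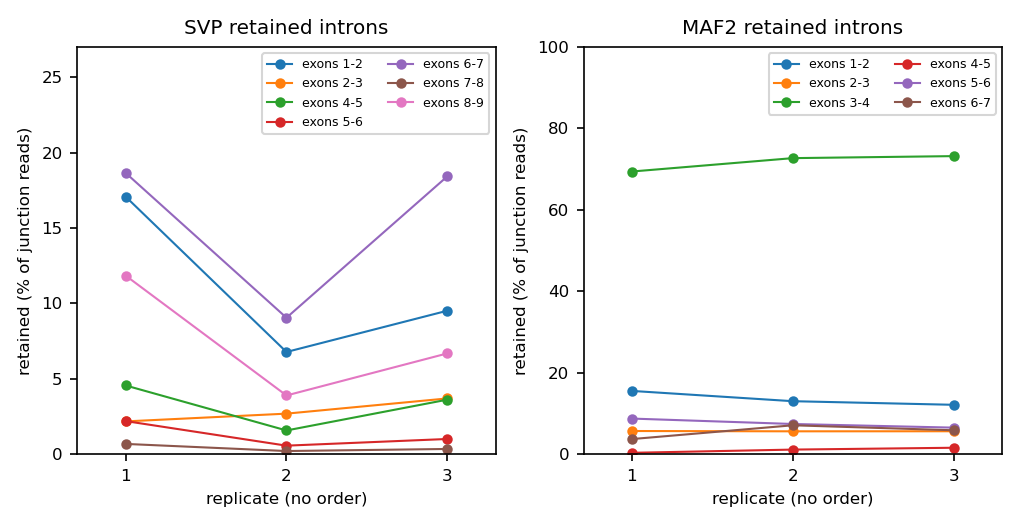
Share of retained reads at the listed introns of SVP (left) and MAF2 (right) in replicates 1, 2 and 3, with a line joining the points of 1 intron and no order among replicates. At SVP 6 of 7 introns are lowest in replicate 2, while MAF2, whose intron at exons 3-4 lies between 69.4% and 73.2%, had no call.

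Other forms of SVP were rare. An acceptor 7 nt into exon 2 had 19, 7 and 22 reads (0.962% ± 0.484 of the junction). An intron of 468 nt inside the 5′ UTR part of exon 1 (chr2:9579930-9580397), which 1 RefSeq transcript also removes, had 30, 26 and 39 reads or 0.273% ± 0.0575 of gene-wide reads. A donor that adds 813 nt to exon 1 and an acceptor 14 nt into exon 3 had 5 reads each over the 3 libraries.

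FLC gave the least data. Its intron 1 (chr5:3175662-3179154, minus strand, 3493 nt), which carries elements that vernalization acts on, had 2 retained reads in each library, of 29, 33 and 64. That is 6.90%, 6.06% and 3.13% (5.36% ± 1.98), with 95% Wilson intervals of 1.91 to 22.0%, 1.68 to 19.6% and 0.861 to 10.7%, so the libraries could not be told apart at this depth. The annotated long noncoding RNA AT5G01675 covers the whole gene on the opposite strand. Strandedness of the libraries is not stated in the labels, so retained reads of FLC may come from either strand.

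In MAF4 the spliced reads that left exon 1 went to the exon numbered 3. This skip had 28, 28 and 54 reads, 18.6% ± 1.71 of gene-wide reads. No spliced read from exon 1 to exon 2 was left in any library, and from exon 2 to exon 3 there was 1, in replicate 2. Retained reads at those junctions numbered 5 and 6 over the 3 libraries. MAF4 has 6 RefSeq transcripts and no event with coordinates, so which exon carries the number 2 could not be settled. A retained intron between exons 4 and 5 was at 25.9%, 21.2% and 20.0% (22.4% ± 3.13, 25 reads), the one at 5-6 at 13.3% ± 8.17 and the one at 3-4 at 7.54% ± 1.49.

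MAF5 retained its intron 1 at 27.5%, 10.8% and 13.3% (17.2% ± 9.0) and the one between exons 6 and 7 at 11.4%, 14.4% and 18.9% (14.9% ± 3.78). Neither passed the test across libraries (chi-square test, adjusted p = 0.0723 and 0.755). A skip of exon 6 had 4, 2 and 5 reads, 0.857% ± 0.425 of gene-wide reads. The table numbers 7 exons in MAF5 and the RefSeq transcripts have at most 6, so coordinates of its introns were not assigned.

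Of 48 other genes of the flowering pathway, 33 had a listed event, with 177 events in all and 15 called between libraries (8.47%, beside 10.1% of all nuclear events). Without replicate 1 that count was 5, beside 3.25% of all events, and without replicate 2 it was 8, beside 5.88% of all. The median level of their 123 retained introns was 5.56%. Among 15 activators of FLC and chromatin factors 13 were listed (not FRL1 and FRL2), with 2 of 65 events called. SUF4 (AT1G30970), a zinc finger protein that recruits the FRI complex to FLC, retained intron 6 at 80.2%, 75.3% and 73.7% (76.4% ± 3.35). AT2G30120 retained its intron 3 in all 219 reads, and HUB2 (AT1G55250), a histone H2B ubiquitin ligase, used a shifted donor in all 95 reads of its first junction. The exon numbering of AT2G30120 and HUB2 was not tied to a RefSeq transcript. Alternative splicing and a mismatch of the gene model therefore cannot be told apart there. Among 8 genes that silence FLC 7 were listed (not VIN3, which cold induces), with 4 of 40 events called. A shifted acceptor of VEL1 (AT4G30200) had 40.7% ± 3.12, intron 11 of VRN2 (AT4G16845), a Polycomb protein, was retained at 38.2% ± 8.03, and a shifted donor of VRN5 (AT3G24440) had 33.2% ± 3.41.

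Targets and partners of the repressors were listed less completely, at 7 of 19 genes. Of their 25 events 2 were called (8%, beside 10.1% of all nuclear events). FT, TSF, AP1, LFY and FUL were among the 12 not listed, which says nothing of their expression. SOC1 (AT2G45660), a MADS-box activator of flowering that FLC and SVP repress, retained intron 2 at 24.2%, 21.9% and 23.0% (23.0% ± 1.15). SPL9 (AT2G42200) retained intron 1 at 47.1%, 20.0% and 32.7% (33.3% ± 13.5, called, chi-square test, adjusted p = 0.0274), and AGL18 (AT3G57390) retained intron 4 at 13.9% ± 8.12. All 6 repressors of the AP2 type were listed, with 7 of 47 events called (14.9%, beside the same 10.1%). Of these calls 6 were in SNZ (AT2G39250), whose intron 3 was retained at 50.4%, 35.4% and 45.7% (43.8% ± 7.66, chi-square test, called). TOE1 (AT2G28550) retained intron 6 at 64.8% ± 1.84, and TOE2 (AT5G60120) used a shifted donor at 58.1% ± 9.62.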

How the data were processed

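Per the submitters' processing notes, reads were handled with CASAVA 1.8.2 and GSNAP on the build TAIR10. The table deposited by the authors holds raw read counts of the alternative form and of other reads for each splicing event in 3 libraries, with no normalization. The event classifier, the counting of intronic reads and strandedness are not stated.

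Levels were computed as alternative reads in percent of both counts, and given as mean ± SD over 3 libraries. Equal levels over libraries were tested by a chi-square test for every nuclear event (n = 62849, scipy 1.17.1), adjusted by Benjamini-Hochberg and called at 0.05. Pairs of genes were compared within libraries by an exact sign-flip permutation test. Organellar events (60) were left out. Exons, introns, reading frames and sequences came from the genome and annotation of TAIR10.1 (RefSeq). The shifted sites between neighbouring exons of FLM, MAF2, MAF3 and SVP all abut the numbered intron of the RefSeq transcript used. Reading frames change 1 event and keep the rest as annotated. Alignments were global (biopython 1.88; match 2, mismatch -1, gap opening -5, extension -1).

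The genes and pathway lists were chosen with earlier results of these data known. The rule for naming was all 7 members with all events and, in each pathway role, the 3 genes with the highest level of an event with at least 30 alternative reads. Alternatives were other tests, read minimums, summed reads, each replicate left out and other denominators. Precision is limited by the 5 to 961 alternative reads behind an event, summed over libraries.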

Additional observations from a re-analysis of the deposited data

How the results depend on the processing

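With 1 of 3 libraries left out, the mean levels of 9 events of the repressors moved by over 1.5-fold, among them intron 5 of SVP (0.780%), the 4-nt acceptor of MAF3 (5.18%), intron 4 of FLM (0.739%) and of MAF3 (0.748%), the intron at exons 5-6 of MAF4 (8.62%) and the 64-nt acceptor of MAF2 (0.256%), all without replicate 1. The count of called events of the repressors was 8 of 58 with a likelihood-ratio test (10.2% of all events) and, where each library had 10 or more alternative reads, 9 of 27 (23.7% of all such events). With 1 library left out it was 3 to 7, and that of pathway events 5 to 13, beside 3.25 to 5.97% of all events. The median level of the retained introns was 11.6% with summed reads and 8.62 to 13.3% with 1 library left out, and the cause was not tested. With 1 library left out, MAF3 minus FLM at intron 1 ranged from -0.382 to 1.10 points, MAF2 minus FLM at intron 4 from -0.629 to 0.591, MAF2 minus MAF3 at intron 4 from -0.801 to 0.582, MAF3 minus FLM at intron 4 from -0.352 to 0.172 and MAF2 minus FLM at intron 5 from -1.39 to 0.0874. In log2 odds, MAF3 minus FLM at intron 4 was 0.011. The other 13 differences kept their direction under these alternatives. Counting only reads outside retained introns, an alternative chosen after seeing the data, lowered reads per junction, in RPM, to 7.95 in FLM, 6.94 in MAF2, 2.43 in MAF3 and 0.629 in MAF4, and the mean over junctions gave 0.528 in MAF4. No paired analysis was possible between groups because the labels give 1 group. Depth limits FLC, MAF4 and MAF5, whose junctions held 1 to 98 reads.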

Other observations

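The intron inside exon 7 of MAF5 (chr5:26002245-26002382, 138 nt) had 2, 2 and 1 reads, 0.412% ± 0.231 of gene-wide reads, and it lies in the annotated 3′ UTR. On the strand of the gene its ends read CT and AC, which on the opposite strand are GT and AG, the ends of most introns. No annotated gene of RefSeq overlaps MAF5, and the event rests on 5 reads.

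Among retained introns of SVP, introns 5 and 7 hold no stop in frame. Retention of intron 5, of 111 nt, left the frame of 240 codons open for 277 codons. Retention of intron 7, of 98 nt, breaks the frame of the exons after it, and a stop came after 281 codons. Retention of intron 6, the one with the most retained reads in SVP, ended the frame after 210 codons, that of intron 1 after 75 and that of intron 8 after 235. In FLM, MAF2 and MAF3 retention of intron 1 ended the frame after 62 codons in each gene.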
